A study of Mus musculus with 2 samples.

Results

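The open chromatin around Pou5f1, the gene encoding Oct4, was examined in ATAC-seq peak lists of mouse embryonic stem cells (ESCs) with and without Uhrf1. All peaks in Pou5f1 with 50 kb on either side were taken. The gene (ENSMUSG00000024406.9) lies at chr17:35642982-35647721 on the plus strand of mm9, so the window ran from 35592982 to 35697721. It held 15 of the 71914 peaks of the WT list and 10 of the 61640 peaks of the Uhrf1 KO list. The WT sample was undifferentiated E14 ESCs, an established mouse line, and the Uhrf1 KO sample was E14 ESCs lacking Uhrf1. Both were grown in serum with leukemia inhibitory factor on gelatin or fibroblast-coated plates, and 50000 cells were lysed per library. Whether the Uhrf1 KO line is a single clone is not given in the sources used here. There was 1 library per genotype, so no difference between the lists has a replicate error, none was tested, and each value compares libraries rather than genotypes.

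Oct4 is a POU-domain transcription factor that ESCs need to stay pluripotent, and it acts with Sox2 and Nanog on shared target genes. Its gene is known to be controlled by a promoter without a TATA box, a proximal enhancer and, farther upstream, a distal enhancer that is the more active of the pair in naive ESCs and the inner cell mass. Oct4 and Sox2 bind the distal enhancer side by side, and the promoter and enhancers gain DNA methylation when ESCs differentiate. Uhrf1 brings the maintenance methyltransferase Dnmt1 to replicating DNA. In ATAC-seq, the Tn5 transposase inserts sequencing adapters where nucleosomes leave DNA accessible, and a peak marks a position where such insertions pile up. The question put to the data was which of these elements carried a peak in each list.

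The sequences below are the 3 upstream elements and the promoter whose peaks the results turn on, read 5′ to 3′ from the plus strand of mm9. Capitals mark matches to the motifs searched. The distal enhancer stretch (chr17:35640892-35641095) spans the distal peaks of both lists, the proximal enhancer stretch (chr17:35641745-35642041) the WT proximal peaks with a KO partner, and the upstream WT-only peak (chr17:35642189-35642289) is a region listed in WT alone. The promoter (chr17:35642732-35642981) is the 250 bp before the transcription start site (TSS).
Distal enhancer: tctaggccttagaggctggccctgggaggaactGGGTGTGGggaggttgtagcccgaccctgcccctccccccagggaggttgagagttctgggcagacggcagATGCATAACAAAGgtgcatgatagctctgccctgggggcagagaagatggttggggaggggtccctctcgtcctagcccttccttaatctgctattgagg
Proximal enhancer: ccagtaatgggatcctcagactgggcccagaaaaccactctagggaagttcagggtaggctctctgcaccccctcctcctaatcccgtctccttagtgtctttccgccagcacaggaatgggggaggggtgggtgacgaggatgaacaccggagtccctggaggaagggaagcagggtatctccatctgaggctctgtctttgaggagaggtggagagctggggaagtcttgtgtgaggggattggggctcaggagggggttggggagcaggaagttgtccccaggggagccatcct
Upstream WT-only peak: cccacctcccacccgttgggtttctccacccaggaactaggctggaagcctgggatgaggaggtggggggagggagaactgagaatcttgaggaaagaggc
Promoter: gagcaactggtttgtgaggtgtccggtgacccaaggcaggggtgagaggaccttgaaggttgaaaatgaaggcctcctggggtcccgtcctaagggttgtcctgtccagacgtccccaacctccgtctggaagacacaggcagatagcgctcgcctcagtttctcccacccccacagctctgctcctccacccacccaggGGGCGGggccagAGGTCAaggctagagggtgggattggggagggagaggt

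Peaks were placed by the distance of their centre from the TSS of the longest coding transcript (35642982). Promoter meant within 500 bp, proximal enhancer up to 1500 bp upstream and distal enhancer up to 3000 bp upstream. These names stand for distances only, and the bounds of the known enhancers were not used. A peak was called shared when a peak of the other list lay within 100 bp. Between the distal enhancer and the end of the gene, WT had 8 peaks and KO had 4. The distal enhancer held 2 WT peaks and 1 KO peak, the proximal enhancer 4 and 2, the promoter 1 and 0, and the gene body 1 and 1. All 4 KO peaks had a WT partner, and the promoter peak and the proximal peak nearest to it were listed in WT alone. Over the whole lists, 32.1% of WT and 24.6% of KO peaks had no partner, so unshared peaks among so few are not unusual. Both enhancer classes carried peaks in both lists, and the stretch within 1000 bp of the TSS carried 3 peaks in WT and 0 in KO. Of these 3, the WT peak at -991 bp was shared with the KO peak at -1047 bp, just past that limit. Of 12930 protein-coding genes with a WT peak within 1 kb of the TSS, 11.8% had no KO peak within 1 kb.

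**Figure D1:**
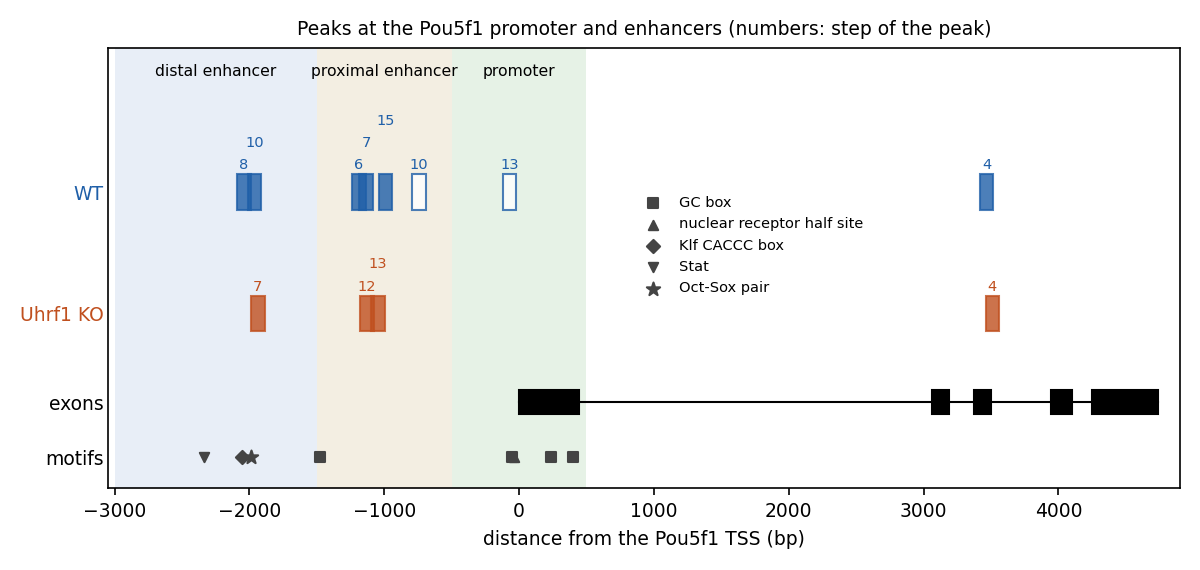
Peaks of WT (blue) and Uhrf1 KO (orange) against the distance from the Pou5f1 TSS in bp, drawn at their listed width. Filled boxes had a peak of the other list within 100 bp, open boxes had none, and the number above a box is its step (see text). Black boxes are exons of the main transcript, and symbols mark motif matches from 3000 bp upstream to 500 bp downstream. The 2 open boxes are the WT peaks at -743 and -72 bp.

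The promoter peak of WT (chr17:35642860-35642960) had its centre 72 bp upstream of the TSS, and the nearest KO peak was 874 bp away. Absence of a promoter peak from the KO list was not rare. Among 12410 protein-coding genes with a WT promoter peak, 1579 (12.7%) had no KO promoter peak, and among the 4630 genes with exactly 1 WT promoter peak, 1004 (21.7%) had none. The lists give no read counts, so a missing peak says that the region was not listed, not that it was closed. The promoter call depended on the start site used. Pou5f1 has 6 shorter annotated transcripts that start 1445 to 3348 bp downstream, and the shared peak in the gene body lay 119 bp (WT) and 162 bp (KO) from the last of these starts. With every annotated start counted, WT had 2 promoter peaks and KO had 1.

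The number at the end of each peak name gave a further, ordinal description. When the peaks of chromosome 17 were sorted by this number, positions rose along the chromosome in 96.4% of neighbouring pairs, in WT (3114 pairs) and in KO (2627 pairs) alike. Each fall in position began a new run along the chromosome. These runs are called steps here and are counted from the highest numbers, so step 1 holds the highest numbers and there were 112 steps in WT and 96 in KO. The quantity that separates the steps was not stated in the sources used here, and steps were compared only within a list. Over all chromosomes, 32.1% of WT peaks and 24.6% of KO peaks had no partner in the other list. This share fell with the step, from 65.4% in step 1 to 1.98% in step 30 in WT and from 54.3% to 2.72% in KO.

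In WT, the peaks with the lowest numbers among those from the distal enhancer to the gene end were the proximal peak at -991 bp in step 15 and the promoter peak in step 13. The promoter peak ranked 1197 of the 3115 WT peaks on chromosome 17 (38.4%). The 2 distal enhancer peaks were in steps 8 and 10, and the other proximal peaks in steps 6, 7 and 10. In KO, the proximal peaks were in steps 12 and 13 and the distal peak in step 7, so that the lowest number of the enhancers was at the proximal one in each list. The WT promoter peak therefore had a lower number than every WT peak of the distal enhancer, although only the latter had KO partners. Among WT peaks of step 13 within 500 bp of a TSS, 109 of 592 (18.4%) had no KO partner, and among all WT peaks of that step 342 of 1672 (20.5%) had none.

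Name numbers that the KO list skipped were also read at the position of the promoter peak, to see whether a number was missing there. In 29 of the 30 KO steps read, the listed peaks before and after this position carried consecutive numbers. The remaining step was step 1, in which 1 number was skipped between listed peaks 301 kb apart. No KO number from steps 2 to 30 was thus missing at the promoter. The same held, with the same skipped number, for the WT-only peaks at -35724, -743, 11178 and 28527 bp, so this reading was not particular to the promoter. On all of chromosome 17 the KO list skipped only 117 numbers, up to a highest number of 2745. Consecutive numbers are therefore common at any position, and KO steps past 30, of 96, were not read. The reading cannot show whether a KO peak was dropped at the promoter.

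**Figure D2:**
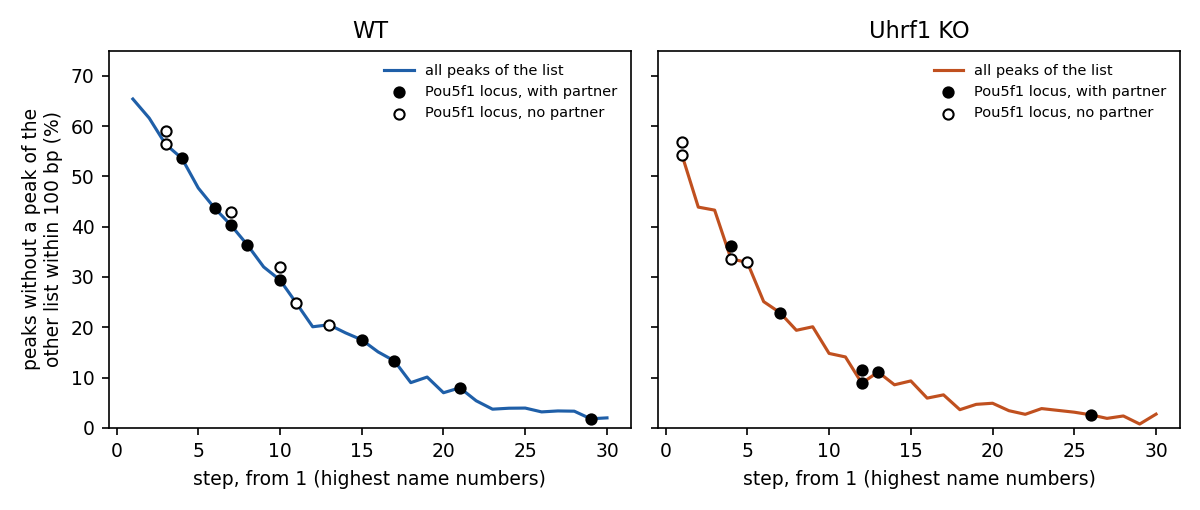
Share of peaks without a peak of the other list within 100 bp (y axis, %) by step (x axis, steps 1 to 30) for all WT peaks (blue line) and all Uhrf1 KO peaks (orange line). Points are the peaks of the Pou5f1 window at their step, filled with and open without a partner, and a second peak of a step is drawn just above the first. The curve falls in both lists, and the open point at WT step 13 is the promoter peak, where 20.5% of all peaks had no partner.

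The promoter sequence held a GC box (GGGCGG, the core site of Sp1-type factors) starting at -50 bp from the TSS and a nuclear receptor site (AGGTCA, a single copy of the hexamer these factors bind) starting at -38 bp. Both lay inside the WT promoter peak. Of 22372 protein-coding promoters of the same length, 40.9% held a GC box and 12.2% the nuclear receptor site. The promoter had a GC content of 62.0% and 7 CpGs, against medians of 54.8% (quartiles 46.4% and 63.6%) and 9 CpGs (3 and 19) over these promoters. A GC box was also found at -1475, 237 and 398 bp, where neither list had a peak.

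The distal enhancer was listed in both genotypes at nearly the same place. The WT peaks at chr17:35640892-35640992 and chr17:35640969-35641069 overlapped each other, and the KO peak at chr17:35640995-35641095 had its centre 26 bp downstream of the second. The KO peak therefore covered the downstream part of the WT region. A Klf box (GGGTGTGG, bound by Klf4 and its relatives) starting at -2057 bp lay in the first WT peak. It lay outside the second WT peak as well as the KO peak. Over all peaks, 3.44% of WT and 3.51% of KO peaks held a Klf box in the central 200 bp. An octamer-like site (ATGCAT) followed 1 base later by a Sox-type site (ACAAAG) started at -1986 bp. This pair lay inside the second WT peak and the KO peak but outside the first WT peak, within the 13 capitals of the distal sequence. It was searched for after the sequence had been read and so is a description only. Over all peaks, the central 200 bp held it in 6 of 71914 WT peaks (0.00834%) and 6 of 61640 KO peaks (0.00973%). The WT 6 include both distal enhancer peaks and the KO 6 the single one. The full octamer (ATGCAAAT) was found in 0 of the 15 WT and 0 of the 10 KO peaks of the window, against 1.58% and 1.94% of all peaks. A Stat-type match (TTCNNNGAA, the spaced palindrome of Stat3 sites) at -2333 bp lay in no peak.

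The proximal enhancer carried the densest group of peaks near the gene. WT peaks had their centres at -1187, -1135, -991 and -743 bp, and KO peaks at -1127 and -1047 bp. The KO peak at -1127 bp lay 8 bp from its WT partner, and the KO peak at -1047 bp lay 56 bp from the WT peak at -991 bp. Merging peaks less than 100 bp apart gave a WT region of 297 bp and a KO region of 181 bp inside it. The WT-only peak at -743 bp was 203 bp from the nearest KO peak and belonged to step 10, in which 29.4% of all WT peaks had no partner. None of the motifs searched was found in the printed proximal stretch or in the -743 bp peak, which says only that these letters are absent there.

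CpGs, the sites that Uhrf1-dependent methylation occupies, were few in the upstream elements. The central 200 bp of the WT peaks held 2 and 4 CpGs in the distal enhancer, between 1 and 4 in the proximal enhancer and 8 at the promoter. The KO peaks held 5 in the distal and 4 and 3 in the proximal enhancer. Across all peaks the median was 9 in WT (quartiles 3 and 18) and 6 in KO (2 and 16). The GC content of the enhancer peaks ranged from 55.5% to 61.0% in WT, around the median of 59.5% for all WT peaks. In KO it ranged from 56.5% to 60.5%, and the median for all KO peaks was lower, at 56.5%. The WT promoter peak had 64.0%. Of the 500 bp windows from -3000 to 1000 bp, the first after the TSS held the most CpGs, 18, and the last before it held 12. Neither list had a peak in the first 500 bp of the gene.

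The peak in the gene body lay near the end of exon 3. The WT peak (chr17:35646399-35646499) was centred 3467 bp and the KO peak (chr17:35646442-35646542) 3510 bp downstream of the TSS, so that the WT centre fell in exon 3 and the KO centre just inside the following intron. Both belonged to step 4 of their list, among the higher name numbers, in which 53.6% of WT and 33.6% of KO peaks had no partner. A Sox core (AACAAT) started at 3481 bp in both peaks. This motif was found in 6.30% of all WT and 8.53% of all KO peaks.

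The rest of the window held 7 WT and 6 KO peaks. The lowest name number of each list in the window, 531 in WT and 395 in KO, was at the divergent promoters of Tcf19, a PHD-finger protein gene, and Cchcr1, a coiled-coil protein gene, which start 10787 and 11063 bp downstream of the Pou5f1 TSS. WT had 4 peaks there, in steps 17, 29, 21 and 11, and KO had 2, in steps 12 and 26. The WT peak in step 11, centred 115 bp inside Cchcr1, had no KO partner within 100 bp and lay 122 bp from the nearest KO peak. These promoter peaks held 15 to 27 CpGs, compared with 8 in the Pou5f1 promoter peak. The neighbouring promoters less than 12 kb away therefore carried peaks in both lists.

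The remaining peaks were single, and none was shared. WT alone had a peak 224 bp inside H2-Q10, a class I histocompatibility gene (step 3, 24 CpGs), a peak in Psors1c2 (step 3) and an intergenic peak at 41632 bp (step 7). KO alone had intergenic peaks at -20139 bp (step 5), -15497 bp (step 4), 36990 bp and 38788 bp (both step 1). The KO-only peaks thus all lay over 15 kb from Pou5f1 and in steps 1 to 5. The shares of all KO peaks without a partner in those steps ran from 54.3% in step 1 to 32.9% in step 5.

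**Figure D3:**
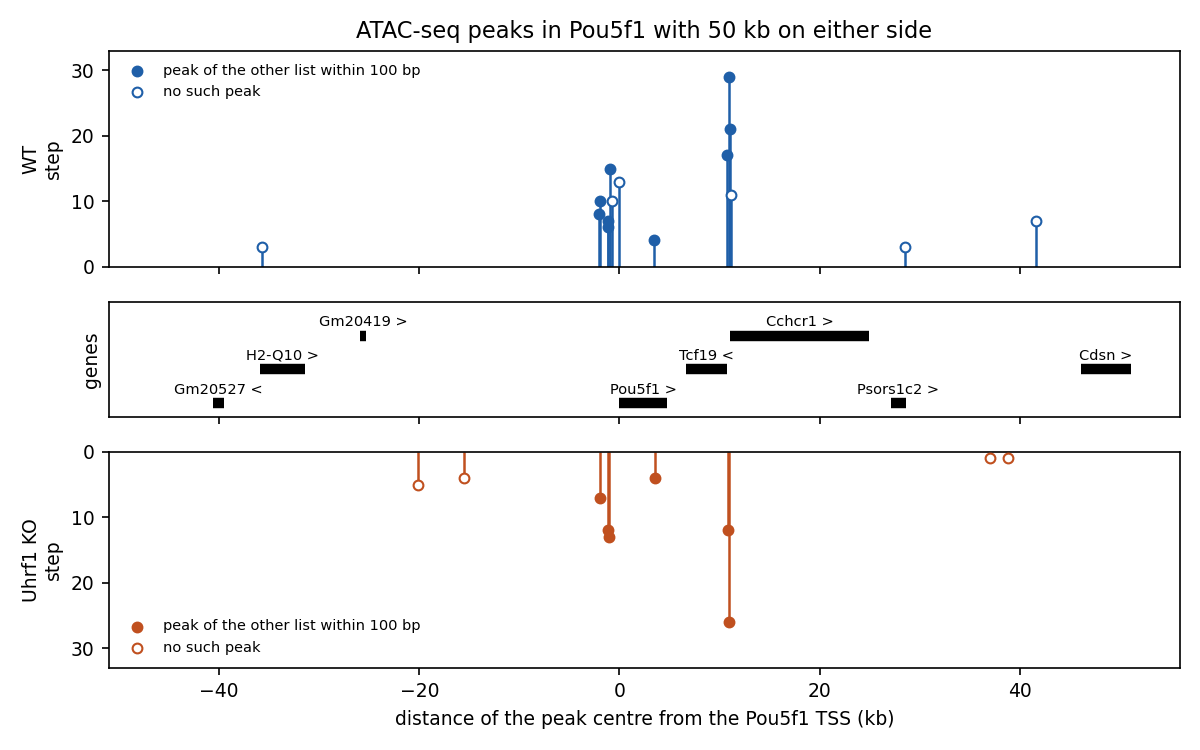
All peaks in Pou5f1 with 50 kb on either side, by the distance of the peak centre from the Pou5f1 TSS (x axis, kb) and by step (y axis, WT upward in blue, Uhrf1 KO downward in orange). Filled points had a peak of the other list within 100 bp and open points had none, and black bars are annotated genes with arrowheads for their strand. The tallest stems of both lists are at the Tcf19 and Cchcr1 promoters, and the 4 open KO points lie away from Pou5f1.

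Unshared peaks made up 6 of the 15 in WT and 4 of the 10 in KO over the whole window. The exact (Clopper-Pearson) binomial intervals of these shares, at 95%, were 16.3% to 67.7% and 12.2% to 73.8%. Both intervals contain the shares of the whole lists given above, and chromosome 17 alone was similar, with 31.8% and 24.4%. The 95% exact Poisson intervals of the peak numbers, 8.40 to 24.7 for WT and 4.80 to 18.4 for KO, overlapped. Such intervals cover counting error only and treat the peaks as independent. Neighbouring peaks overlap, however, and merging them left 9 WT and 8 KO regions, so the intervals decide nothing. The central 31 bp of all 15 WT and 10 KO peaks occurred once in the genome. The rest of each peak was not checked for copies.

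Among 22372 protein-coding genes with the same window, 87.0% had fewer than 15 WT peaks (median 7, quartiles 3 and 11) and 78.6% had fewer than 10 KO peaks (median 5, quartiles 2 and 9). Nanog, a homeobox factor of the same network, had 15 WT and 12 KO peaks, and Sox2, the partner of Oct4 on DNA, had 6 and 5. The Pou5f1 window was peak-rich in both lists, like that of Nanog. These counts are of the whole window, in which 7 WT and 6 KO peaks lay outside Pou5f1 and its upstream classes. Neighbouring peaks were not merged in this comparison.

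**Figure D4:**
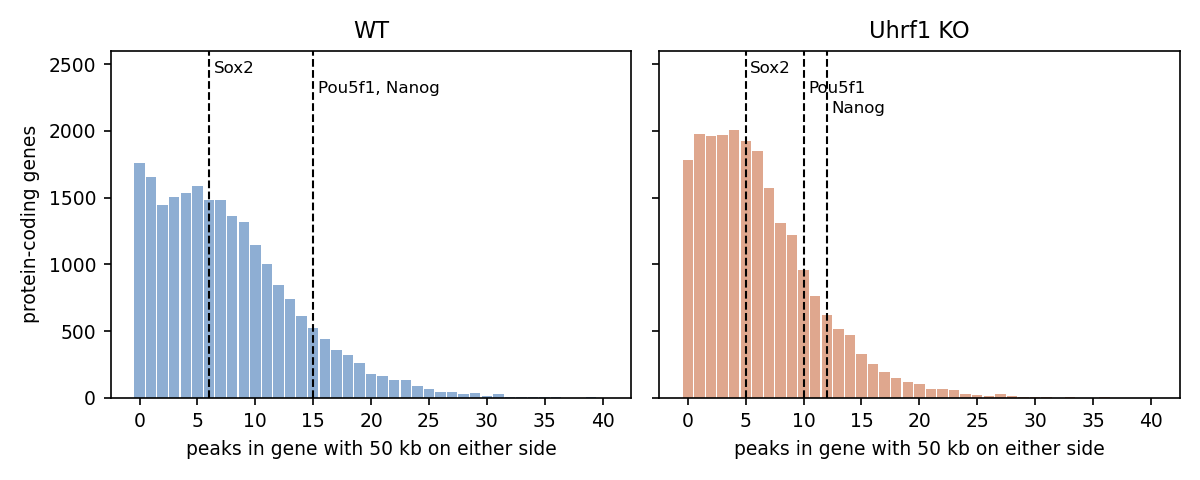
Number of protein-coding genes (y axis) by the number of peaks in the gene with 50 kb on either side (x axis, shown up to 40) for WT (blue) and Uhrf1 KO (orange). Dashed lines mark Pou5f1, Sox2 and Nanog. Pou5f1 stands at 15 peaks in WT and 10 in KO, to the right of the medians of 7 and 5.

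The promoters of Sox2 and Nanog had a peak in both lists. At Sox2, the WT peak at -124 bp belonged to step 27 and the KO peaks at -135 and -48 bp to steps 19 and 24. At Nanog, a WT peak at -75 bp and a KO peak at -60 bp were both in step 8, and a WT peak at -402 bp in step 2 had no KO partner. So the WT-only state of the Pou5f1 promoter was not seen at these loci. Name numbers run within each chromosome, so those of these loci were not set against those of Pou5f1. Over the windows, 2 of 15 WT and 0 of 12 KO peaks had no partner at Nanog, and 3 of 6 and 1 of 5 at Sox2. These small counts are to be read against 32.1% of all WT and 24.6% of all KO peaks.

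Of 16 genes of the pluripotency network, 15 were found in the annotation. A promoter peak was listed for 12 in WT and 11 in KO, and 10 had one in both. Lin28a, an RNA-binding protein gene, and Prdm14, a naive-state repressor of Fgf signalling, had one in WT alone, and Esrrb, an orphan nuclear receptor gene, in KO alone. With every annotated start counted, Esrrb had a promoter peak in both lists. The WT-only share here, 2 of 12, is to be read against the 12.7% of all genes given above. Of 15 genes named Pou and a digit, among them Pou2af1, a coactivator gene outside the POU family, 10 had a promoter peak in WT and 7 in KO. Those with one in WT alone were Pou5f1, Pou3f3 and Pou6f1. Without Pou5f1 this is 2 of 9 genes, to be read against the same 12.7%. With every annotated start counted, 10 of the 15 had a promoter peak in WT and 9 in KO.

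Pou5f1 was 1 of 186 of the 22372 genes (0.831%) that had WT peaks in the promoter, proximal and distal class. In 77 of them (41.4%) KO had peaks in all 3 classes, and in 29 (15.6%) KO lacked the promoter peak. The full Pou5f1 pattern, with KO peaks in both upstream classes and none at the promoter, was found in 13 (6.99%), Pou5f1 itself included. The other 12 (6.49% of the 185 genes without Pou5f1) included Fgf12, Igf1r and Hivep2. This set was defined after the Pou5f1 values had been seen and is given as a count only.

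The labelled cell type was set beside marker genes. Over all 22372 protein-coding genes, 55.5% had a promoter peak in WT and 49.8% in KO. Of the 8 ESC markers other than Pou5f1, 6 had one in WT and 7 in KO, and 6 had one in both. Pou5f1 is itself an ESC marker and was left out of this count, being the only one of the 9 with a promoter peak in WT alone. Of 9 fibroblast markers, chosen because cells may have been grown on feeders, 4 had one in WT and 2 in KO. Their part in the Pou5f1 values was not tested.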

How the data were processed

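ATAC-seq was made by the authors from 1 library of WT and 1 of Uhrf1 KO E14 ESCs. Reads were mapped by the authors to mm9 with Bowtie2 2.1.0, with 1 alignment reported per read, and fragments under 150 bp were used. HOMER 4.9.1 is named in the submitters' processing notes without a role. The peak caller, its threshold and any shift of read ends to the Tn5 cut are not given in the sources used here. The deposited files hold peak positions, names and a score. Since the deposited score is always 1, it ranks nothing, and the width is 101 bp in all but 1 peak (86 bp, KO). Depth behind a peak is unknown.

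Positions were compared with scipy 1.17.1, pandas 2.3.3 and numpy 2.4.6 under Python 3.11.15, and matplotlib 3.10.9 drew the figures. Genes came from GENCODE vM1 and sequence from NCBIM37, the same build as mm9. The overlap and step routines were run on simulated data. The step simulation assumed a score with positions ordered within each value, so it cannot show what separates the real steps. GC, CpGs and motifs (exact letters, both strands) were read in the central 200 bp. No test between genotypes was made. Named genes were Pou5f1, its window's genes, Sox2, Nanog, and the pluripotency and POU lists by counts. List genes with a peak in 1 list alone, and genes with the Pou5f1 pattern, were named after their values were seen. The locus and lists were chosen with earlier results of these data known, and steps and the ATGCAT to ACAAAG pair after the data were seen. Alternatives were other overlap rules, windows, start sites, promoter widths, merging, lower name numbers and sequence lengths.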

Additional observations from a re-analysis of the deposited data

How the results depend on the processing

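Of 90 recomputed values, 65 stayed within the limits set for them, 25 moved and 0 reversed. Some of the 65 could not change. These were peak totals under another overlap rule and all values for peaks with a unique central 31 bp. Upstream classes also could not change with the other annotated starts, which all lie downstream. Nor could the distal class change with a promoter of 1000 bp, since it begins at 1500 bp upstream. The limits were wide, since the WT unshared share stayed within them where WT-only peaks were 10 or 3. A single count has no direction, so 0 reversed says nothing about such counts. Windows decided the counts of unshared peaks: with 10 kb on either side WT-only peaks were 3, KO peaks 6 and KO-only peaks 0 (0%), and with 20 kb WT-only peaks were 3 and KO-only peaks 1. When at least 50% of both regions had to be shared, WT-only peaks were 10, because neighbouring peaks are offset. Merging neighbouring peaks left 9 WT and 8 KO peaks, against 15 and 10 as listed. In the lower 50% of name numbers there were 8 WT and 4 KO peaks, of which 3 WT and 0 KO (0%) had no partner. With every annotated start, promoter peaks were 2 in WT and 1 in KO, and with a promoter of 1000 bp WT had 3 promoter and 2 proximal peaks. In the central 200 bp, the Klf box was in 4 of the 15 WT and 0 of the 10 KO peaks. Over all peaks the shares were 3.44% and 3.51%. The GC box was in 6 and 2 (all peaks 38.4% and 34.5%), and the Sox core in 1 and 2 (6.3% and 8.53%). The nuclear receptor site was in 1 and 2 (9.36% and 9.94%), and the Stat site in 0 and 1 (4.03% and 4.71%). Neighbouring peaks can share a match, so these are not counts of separate sites. Read in the peak as listed, KO peaks with the Sox core were 1 and with the nuclear receptor site 1. KO peaks with the GC box were 1 and with the Stat site 0. WT peaks with the Klf box were 2 and with the ATGCAT to ACAAAG pair 1. Read in 400 bp, WT peaks with the nuclear receptor site were 2 and KO peaks with the Klf box 2. No paired analysis was possible because there is only 1 sample per group. The lists hold no counts, so the size of any difference at the promoter is unknown.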
